A study of Mus musculus with 12 samples.

Results

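The 3 libraries labelled DKO, from fibroblasts of embryos deficient in both Gadd45a and Ing1, were set against the 3 libraries labelled WT. They are 6 of the 12 libraries of the series and were chosen by their labels alone. Poly(A) RNA had been taken from mouse embryonic fibroblasts on day 6 of adipocyte differentiation and sequenced. The groups used here are the double mutant, Gadd45a-/-;Ing1-/- (DKO), the single mutants Gadd45a-KO and Ing1-KO, and WT, with 3 libraries each. All 4 genotypes share the strain background C57BL/6N, came from male embryos of day E15.5 out of crosses between mice deficient in each gene, and were cultured for 4 passages. Every group received the same agents: for the first 48 h the medium held insulin (10 µg/ml), the glucocorticoid dexamethasone (1 µM), the phosphodiesterase inhibitor IBMX (0.5 mM) and the Pparg ligand rosiglitazone (2 µM), and later insulin alone. The labels do not say whether the replicates of a genotype came from separate embryos or cultures, so each p-value rests on the spread among the libraries at hand, which may be technical. They also do not say which stretch of either gene was deleted.

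As background, such a culture turns fibroblasts into fat cells: the dexamethasone and IBMX induce the factors Cebpb and Cebpd, these raise Pparg and Cebpa, and the Pparg protein, which rosiglitazone binds, then drives the genes of lipid uptake, triglyceride synthesis and the lipid droplet. Gadd45a encodes a stress-induced adaptor protein that takes part in DNA demethylation. Ing1 encodes a reader of a histone mark of active promoters and belongs to the SIN3 histone deacetylase complex. The comparison asks what differs at the end of this course where both genes are targeted, and the single mutants give the same values for each gene alone.

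The libraries labelled DKO held 42891627 to 48102194 reads on genes, and the WT libraries 46310012 to 50874502. Levels are given as CPM, read counts scaled to the library's total on genes, which is not scaled by gene length, so levels of different genes are not compared. Means are given with the SD of 3 libraries per genotype. The fibroblast genes Vim and Prrx1 were high in both groups. Other fibroblast markers differed: of 26 marker genes of fibroblasts and fat cell precursors 2 rose and 6 fell, as given below. Of all tested genes 5.94% rose and 7.09% fell. Vim, the filament protein vimentin, stood at 2697 ± 119 CPM in the DKO-labelled libraries and 2809 ± 65.7 CPM in WT libraries (adjusted p = 0.486). Prrx1, a mesenchymal transcription factor, stood at 767 ± 33.4 CPM in the DKO-labelled libraries and 794 ± 23.3 CPM in WT libraries (adjusted p = 0.635). Some libraries stood apart within their genotype. WT 2 held about as many reads as the others but lower levels of fat cell genes than WT 1 and WT 3. Gadd45a-KO 1 was low in macrophage genes, and the Ing1-KO libraries differed widely in fat cell genes. DKO 3 was lower than DKO 1 and DKO 2 in elastin and contractile genes. Values are given beside the results they touch.

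The 2 targeted genes were examined first. Ing1 had 0.916, 1.15 and 0.681 CPM in the DKO-labelled libraries, against 44.6, 47.9 and 43.6 CPM in WT libraries (log2 fold change -5.63, SE 0.16, adjusted p = 1.76e-08), and 1.00, 1.07 and 1.60 CPM in Ing1-KO libraries. The libraries labelled DKO and Ing1-KO were thus nearly without Ing1 reads, as their labels state. Gadd45a went the other way, with 140.4, 142 and 138 CPM in the DKO-labelled libraries, against 14.5, 17.9 and 15.1 CPM in WT libraries (log2 fold change 3.15, SE 0.11, adjusted p = 1.15e-07). It was just as high in Gadd45a-KO libraries, at 144, 141 and 144 CPM, and at the WT level in Ing1-KO libraries, at 13.4, 15 and 18.4 CPM. Reads on Gadd45a were therefore higher in every library labelled as lacking the gene than in every library labelled as having it, which goes against the label as a measure of its RNA, and reads outside the deleted stretch would check nothing. The genotype is for this reason given throughout as the label. E230016M11Rik, which the annotation places across the start of Gadd45a on the opposite strand, did the reverse of Gadd45a and had 0.0704, 0.110 and 0.0619 CPM in the DKO-labelled libraries, against 1.07, 1.15 and 0.956 CPM in WT libraries (log2 fold change -3.67, adjusted p = 0.000231). It was also low in Gadd45a-KO libraries, at 0.170, 0.122 and 0.0849 CPM, and not in Ing1-KO libraries, at 1.04, 1.30 and 1.37 CPM. Whether the counting used the strand is not given in the sources used here, so reads of these overlapping genes cannot be assigned with certainty. Each of the calls named here was also made in all 12 fits that left out 1 library.

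Of 16163 genes tested, 960 (5.94%) were higher and 1146 (7.09%) lower in the DKO-labelled libraries than in WT at an adjusted p under 0.05 by edgeR's quasi-likelihood test, which makes 2106 called genes (13%). The falls reached further than the rises. Among called genes 360 (2.23%) were at least 2-fold lower and 168 (1.04%) at least 2-fold higher, and 166 were at least 4-fold lower against 25 at least 4-fold higher. The median log2 fold change of all tested genes was -0.00257. Values of all 3 DKO-labelled libraries lay above all 3 WT values for 2848 genes (17.6%) and below them for 3181 (19.7%). The calls leaned on some libraries: the largest losses came without WT 1, which left 121 higher and 175 lower, without DKO 1, which left 160 and 173, and without WT 3, which left 279 and 363. Without DKO 2 the counts were 408 and 408, without WT 2 they were 593 and 1041, and without Gadd45a-KO 1, which enters through the shared estimate of spread, they were 1472 and 1283. No called gene changed sign in any of these fits. The plot of fold change against level shows the called genes.

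**Figure D1:**
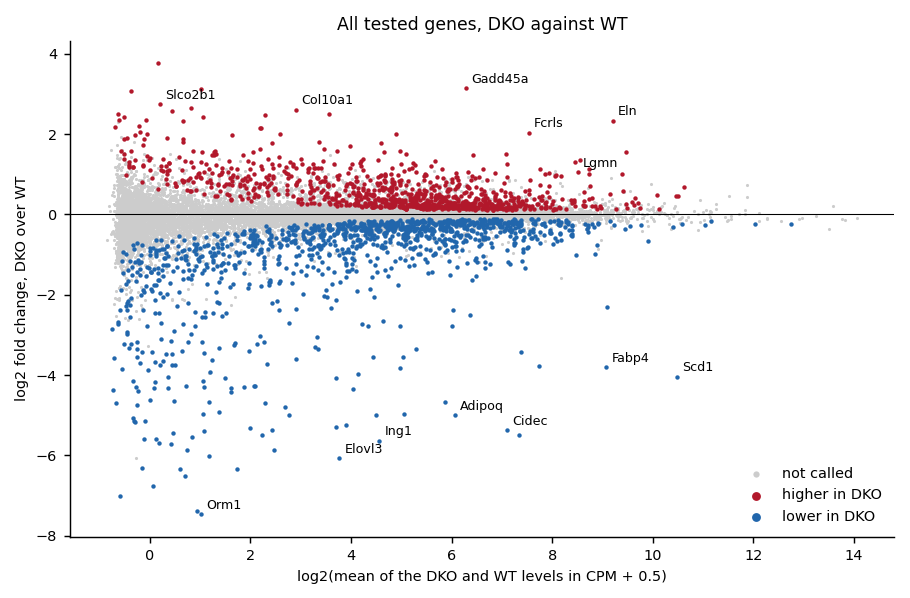
Each point is 1 of 16163 tested genes, with the log2 of its mean level (CPM + 0.5) over the DKO-labelled and WT libraries on the x axis and its log2 fold change, DKO over WT, on the y axis. Red points were called higher (960), blue points lower (1146) and grey points not called, and the labelled falls such as Cidec (-5.38) reach further from 0 than the labelled rises such as Fcrls (2.04).

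Some relatives of the targeted genes passed the test, as did 13% of all tested genes. Of 10 tested genes of the Gadd45 family and its partners, none but Gadd45a, E230016M11Rik and Apex1 were called, the last a base excision repair nuclease (log2 fold change -0.23, adjusted p = 0.0381). Gadd45b had 35, 32.2 and 28.1 CPM in the DKO-labelled libraries, against 29.6, 32.7 and 29.6 CPM in WT libraries. Gadd45g had 72.1, 77.7 and 57.7 CPM in the DKO-labelled libraries, against 69.0, 67.1 and 69.3 CPM in WT libraries, and both overlapped between the genotypes. Of 5 ING family genes Ing1 fell and Ing2, its closest relative, rose, with 12.3, 12.2 and 12.9 CPM in the DKO-labelled libraries, against 10.6, 10.6 and 10.2 CPM in WT libraries (log2 fold change 0.25, adjusted p = 0.021). Of 20 genes of the SIN3 complex 3 rose by small amounts, Sin3a (log2 fold change 0.16), the scaffold, and Arid4a and Arid4b (0.25 and 0.19), its DNA-binding subunits, and 0 fell. For the lists given with 0 calls in 1 direction against WT, edgeR's test left at most 5 members in that direction at an unadjusted p under 0.05, DESeq2 called at most 3 and limma-voom 0. Of 22 genes of DNA methylation and demethylation 1 rose and 4 fell. The rise was that of Apobec1, a cytidine deaminase (log2 fold change 0.82, adjusted p = 0.048), and the falls included Dnmt3l, the cofactor of the de novo methyltransferases (log2 fold change -0.92, adjusted p = 0.0357), and Mbd3, a subunit of the NuRD complex (log2 fold change -0.16, adjusted p = 0.0236). The demethylation enzymes Tet1 and Tdg did not pass the test. Tet1 averaged 22.7 ± 1.64 CPM in the DKO-labelled libraries and 24.1 ± 1.12 CPM in WT libraries. Tdg averaged 19.9 ± 0.356 CPM in the DKO-labelled libraries and 20.3 ± 1.24 CPM in WT libraries. The 25 tested genes on each side of the targeted loci, in the order of the GENCODE annotation on GRCm38, were counted as well. Of these, 10 of 50 around Gadd45a (20%) and 8 of 50 around Ing1 (16%) were called, against 13% of all tested genes. Gprin3 fell beside Gadd45a, with 0.540, 0.906 and 0.784 CPM in the DKO-labelled libraries, against 4.82, 2.28 and 3.30 CPM in WT libraries (log2 fold change -2.21, adjusted p = 0.0294). Other called neighbours of Gadd45a included Hpgds, higher in the DKO-labelled libraries, and Fkbp9, Pyurf, Lancl2, Nap1l5, Fam13a and Immt, which were lower. Around Ing1 the calls were Arhgef7, Mcf2l and Lamp1, all higher, and Cers4, Efnb2, 3930402G23Rik, Pcid2 and Rasa3, all lower. Besides the targeted genes and E230016M11Rik, the calls of Lancl2 and Lamp1 were made in all 12 fits that left out 1 library, and the other calls named here were not.

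Some of the transcription factors that start and hold the fat cell programme fell. Of 23 tested pro-adipogenic factors 8 fell, against 7.09% of all tested genes, 15 were not called and 0 rose, and their median log2 fold change was -0.37. Pparg, the nuclear receptor at the head of the programme, had 1.74, 1.94 and 2.48 CPM in the DKO-labelled libraries, against 20.6, 11 and 19.6 CPM in WT libraries (log2 fold change -3.05, SE 0.63, adjusted p = 0.0163). Every DKO-labelled library was thus below every WT library, and WT 2 lay nearest to them. Mlxipl, the carbohydrate-sensing factor of lipogenesis, had 0.0939, 0.309 and 0.289 CPM in the DKO-labelled libraries, against 3.00, 1.19 and 2.25 CPM in WT libraries (log2 fold change -3.19, adjusted p = 0.0299). The factors that act early in the course fell less: Cebpb had 13.6, 12.9 and 13.7 CPM in the DKO-labelled libraries, against 16.7, 16.4 and 16.3 CPM in WT libraries (log2 fold change -0.30, adjusted p = 0.00659). Cebpd had 18.9, 15.6 and 18.1 CPM in the DKO-labelled libraries, against 28.5, 23.5 and 23.4 CPM in WT libraries (log2 fold change -0.52, adjusted p = 0.0164). Srebf1, which drives fatty acid synthesis, fell (log2 fold change -0.60, adjusted p = 0.0205), and so did Nr1h3, the oxysterol receptor LXR alpha (log2 fold change -1.11, adjusted p = 0.0354). Ebf1, a determinant of the fat cell lineage (log2 fold change -0.37, adjusted p = 0.024), and Klf4, an early inducer of Cebpb (log2 fold change -0.26, adjusted p = 0.0397), made up the rest. Cebpa, the partner of Pparg, had 21.9, 21.6 and 22.3 CPM in the DKO-labelled libraries, against 56.0, 30.9 and 48.6 CPM in WT libraries, values that do not overlap, but did not pass the test (log2 fold change -1.04, adjusted p = 0.0622). The count of 8 was 1 without WT 1, 2 without WT 3, 14 without Ing1-KO 1, 15 without Ing1-KO 3, 1 without DKO 1, 1 without DKO 2 and 4 without DKO 3. Of the calls named here, that of Cebpb was made in all 12 fits without 1 library, and the others were not.

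Repressors of fat cell formation were not called higher. Of 19 tested anti-adipogenic regulators 0 rose and 3 fell, against 5.94% and 7.09% of all tested genes, and the median was -0.06. The 3 were Sox9, a cartilage factor that blocks adipogenesis (log2 fold change -0.69, adjusted p = 0.022), Snai1, a repressor of epithelial genes (log2 fold change -0.37, adjusted p = 0.0138), and Tcf7l2, the nuclear partner of beta-catenin (log2 fold change -0.23, adjusted p = 0.0391). All of the calls named here were lost in 1 or more of the 12 fits without 1 library.

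Fat cell products were among the deepest falls. Of 15 tested lipid droplet proteins 11 fell, against 7.09% of all tested genes, and 0 rose, and their median log2 fold change was -1.38. Their promoters are shown for the 3 called members with the smallest adjusted p whose windows hold the C/EBP motif TTGCNNAA upstream of the start site, searched on both strands and in capitals below. The windows are those of RefSeq on GRCm38.p6, from 250 bases before to 50 after each start. The stretches lie at chr6:113434930-113434987 on the minus strand (Cidec), chr7:79732802-79732859 on the minus strand (Plin1) and chr10:61720525-61720582 on the plus strand (Aifm2).
Cidec: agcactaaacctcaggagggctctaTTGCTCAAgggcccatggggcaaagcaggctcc
Plin1: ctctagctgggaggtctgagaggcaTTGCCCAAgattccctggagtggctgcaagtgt
Aifm2: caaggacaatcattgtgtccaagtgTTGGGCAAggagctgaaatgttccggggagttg
Such a match is a description of the letters and not a mapped site. It was found for 4 of 14 lipid droplet genes with a window (28.6%), against 10.2% of all 11486 tested genes with one. Among called genes with a window it was in 14.2% of those at least 2-fold lower and in 16.8% of those at least 2-fold higher. Cidec, which fuses droplets, had 6.39, 5.34 and 7.57 CPM in the DKO-labelled libraries, against 369, 136 and 301 CPM in WT libraries (log2 fold change -5.38, SE 0.90, adjusted p = 0.00885). Plin1, the coat protein of the mature droplet, had 1.69, 1.68 and 2.64 CPM in the DKO-labelled libraries, against 83.6, 36.4 and 70.9 CPM in WT libraries (log2 fold change -4.98, SE 0.88, adjusted p = 0.0105). The DKO-labelled libraries lay far below all WT libraries for both, and WT 2 was the lowest of the WT libraries. Plin4 and Plin5, which coat young droplets and link them to mitochondria, also fell (log2 fold change -4.67, adjusted p = 0.00984, and log2 fold change -4.28, adjusted p = 0.0166). Plin2, the coat protein found in most cells, fell less, with 159.8, 160.5 and 169 CPM in the DKO-labelled libraries, against 305, 218 and 279 CPM in WT libraries (log2 fold change -0.71, adjusted p = 0.0317). Plin3, another general coat protein, was not called, at 84.0 ± 5.15 CPM in the DKO-labelled libraries and 80.7 ± 0.718 CPM in WT libraries. Pnpla2, the first lipase of lipolysis, fell (log2 fold change -2.51, adjusted p = 0.0171) along with its inhibitor G0s2 (log2 fold change -2.74, adjusted p = 0.0218) and its coactivator Abhd5. The remaining falls were those of the droplet formation proteins Fitm2 and Bscl2 and of Aifm2, a droplet-associated oxidoreductase (log2 fold change -1.38, adjusted p = 0.0171). Summed over the list, the level was 465, 455 and 495 CPM in DKO-labelled libraries, against 1500.1, 869 and 1333 CPM in WT libraries. It was 758, 850 and 700 CPM in Gadd45a-KO libraries and 1249, 692 and 482 CPM in Ing1-KO libraries. Ing1-KO 3 thus lay within the range of the DKO-labelled libraries. In such bulk RNA fewer fat cells and less of these RNAs per fat cell cannot be told apart. The count of 11 was 3 without WT 1, 3 without WT 3, 1 without DKO 1 and 3 without DKO 2. The call of Cidec was made in all 12 fits that left out 1 library, and the other calls named here were not.

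Many secreted fat cell proteins fell. Of 19 tested adipokines and secreted adipocyte proteins 9 fell, against 7.09% of all tested genes, and 1 rose, with a median of -0.63. The level summed over the list was not lower, at 3376, 3672 and 2807 CPM in the DKO-labelled libraries, against 2654, 2748 and 3058 CPM in WT libraries, with DKO 3 within the WT range and DKO 1 and DKO 2 above it. The gene that rose was Apoe, a lipid carrier that macrophages also make, with 1073, 1135 and 977 CPM in the DKO-labelled libraries, against 326, 335 and 416 CPM in WT libraries (log2 fold change 1.56, adjusted p = 0.0357). Adipoq, the insulin-sensitising hormone adiponectin, had 3.12, 3.11 and 5.73 CPM in the DKO-labelled libraries, against 164, 69.0 and 153 CPM in WT libraries (log2 fold change -5.00, SE 0.89, adjusted p = 0.0107). Rbp4, the carrier of retinol, had 1.41, 1.08 and 2.58 CPM in the DKO-labelled libraries, against 20.4, 11 and 21.3 CPM in WT libraries (log2 fold change -3.36, adjusted p = 0.0187). Cfd, the complement protease adipsin, had 0.0939, 0.110 and 0.0619 CPM in the DKO-labelled libraries, against 1.66, 0.997 and 1.79 CPM in WT libraries (log2 fold change -4.04, adjusted p = 0.0171). Some members were almost without reads in the DKO-labelled libraries, so ratios are given with their exact 95% counting intervals. Lep, the satiety hormone leptin, had 3 reads over the 3 DKO-labelled libraries and 290 over the 3 WT libraries, a WT to DKO ratio of 91.1 (30.9 to 445; log2 fold change -6.35, adjusted p = 0.00549). The fitted fold change of a gene with so few reads in 1 group, here and for Retn, Orm1 and Cox8b, depends on the prior count of the fit and is no bound. Retn, resistin, had 2 reads in DKO-labelled and 416 in WT libraries, a ratio of 196 (53.9 to 1625; log2 fold change -7.38, adjusted p = 0.0111). Agt, the precursor of angiotensin (log2 fold change -4.08, adjusted p = 0.0188), Rarres2, the chemoattractant chemerin (log2 fold change -1.51, adjusted p = 0.0395), Angptl4, an inhibitor of lipoprotein lipase (log2 fold change -0.63, adjusted p = 0.0256), and C1qtnf12 also fell. The count of 9 was 3 without WT 1, 3 without WT 3, 1 without DKO 1 and 2 without DKO 2. Of the calls named here, that of Lep was made in all 12 fits without 1 library, and the others were not.

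**Figure D2:**
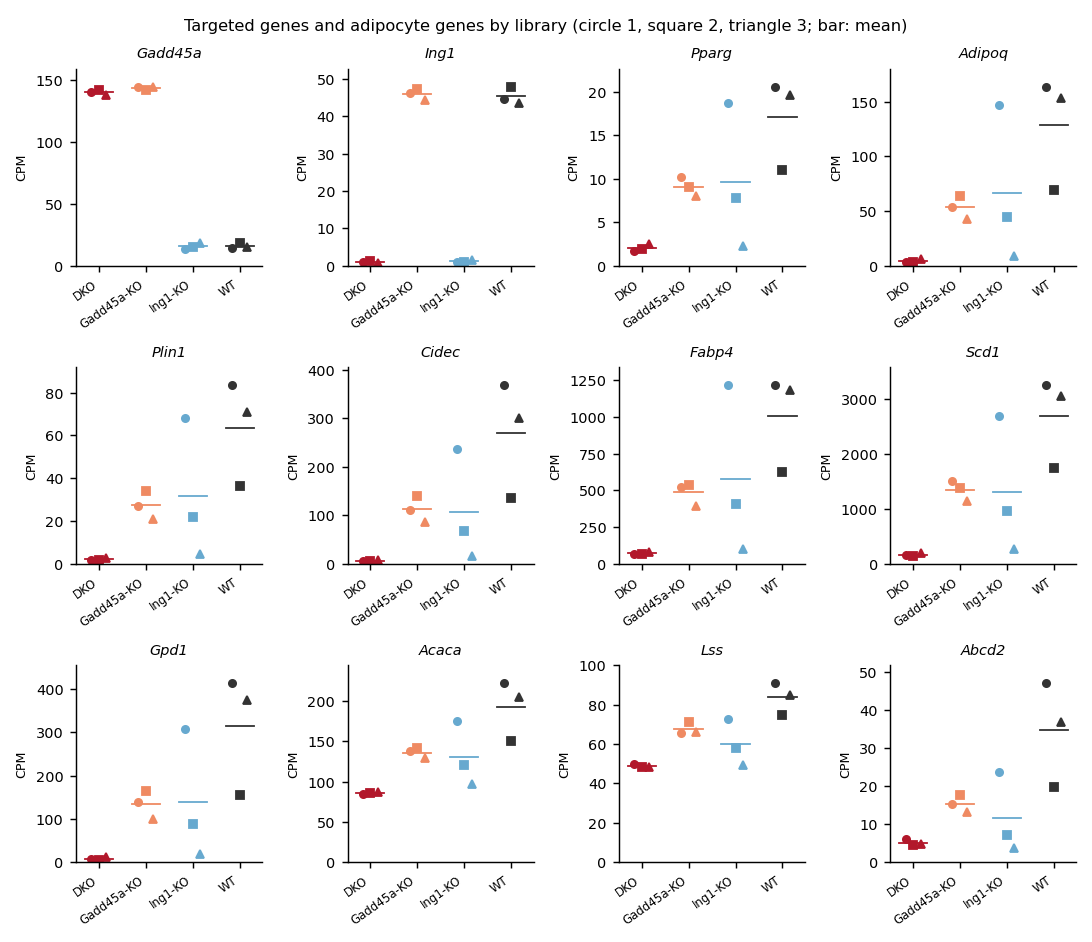
Levels in CPM (y axis) of 12 genes in each of the 12 libraries, by genotype label (x axis: DKO, Gadd45a-KO, Ing1-KO, WT), with a bar at the mean of 3 libraries. Gadd45a is high in both groups labelled as lacking it, Ing1 is low in DKO and Ing1-KO, and for Adipoq, Plin1, Cidec, Fabp4, Scd1 and Gpd1 the 3 DKO points lie below all WT points, with WT 2 (square) the lowest WT point.

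Many genes that bring fatty acids into the cell fell. Of 17 tested uptake and binding genes 9 fell, against 7.09% of all tested genes, and 0 rose, with a median of -0.39. Fabp4, the fatty acid carrier of fat cells, had 68.7, 68.6 and 78.9 CPM in the DKO-labelled libraries, against 1216, 627 and 1181 CPM in WT libraries (log2 fold change -3.81, SE 0.73, adjusted p = 0.0131). Lpl, the lipase that frees fatty acids from lipoproteins, had 156, 151 and 244 CPM in the DKO-labelled libraries, against 1115, 606 and 1000.2 CPM in WT libraries (log2 fold change -2.31, adjusted p = 0.0235). Acsl1, which activates them with coenzyme A, had 26.5, 27.1 and 33.3 CPM in the DKO-labelled libraries, against 505, 223 and 459.5 CPM in WT libraries (log2 fold change -3.77, adjusted p = 0.0115). No DKO-labelled library reached the lowest WT library for these. Fabp5, the carrier also found in macrophages and skin, fell less (log2 fold change -0.51, adjusted p = 0.0118). The transporter Cd36 had 159.8, 158 and 118 CPM in the DKO-labelled libraries, against 538, 286 and 483 CPM in WT libraries and did not pass the test (log2 fold change -1.58, adjusted p = 0.0803), and Cd36 is also made by macrophages. The count of 9 was 2 without WT 1, 5 without WT 3 and 1 without DKO 1. All of the calls named here were lost in 1 or more of the 12 fits without 1 library.

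Genes of both triglyceride synthesis and breakdown fell. Of 25 tested genes 16 fell, against 7.09% of all tested genes, 1 rose and the median was -1.33. Gpd1, which makes the glycerol backbone, had 5.70, 5.04 and 10.3 CPM in the DKO-labelled libraries, against 415, 156 and 375 CPM in WT libraries (log2 fold change -5.48, SE 0.95, adjusted p = 0.00983). Pck1, the enzyme of glyceroneogenesis, had 1.15, 0.817 and 2.00 CPM in the DKO-labelled libraries, against 53.4, 20.2 and 54.9 CPM in WT libraries (log2 fold change -5.00, adjusted p = 0.0111). All 3 DKO-labelled libraries lay far below the lowest WT library for both. The acylation steps fell together, with Gpat3 (log2 fold change -3.31, adjusted p = 0.0166), Agpat2 (log2 fold change -2.39, adjusted p = 0.0167), and Lpin1 (log2 fold change -1.09, adjusted p = 0.021). The last enzymes, Dgat1 and Dgat2, fell as well (log2 fold change -0.94, adjusted p = 0.0249, and log2 fold change -1.89, adjusted p = 0.0171). On the side of breakdown Lipe, hormone-sensitive lipase, had 6.27, 6.27 and 8.07 CPM in the DKO-labelled libraries, against 91.0, 42.0 and 79.2 CPM in WT libraries (log2 fold change -3.36, adjusted p = 0.0145). Mgll completes the cleavage and fell (log2 fold change -1.03, adjusted p = 0.0264), as did Aqp7, the channel for the glycerol released (log2 fold change -4.29, adjusted p = 0.0195). The gene that rose was Lpin2, a relative of Lpin1 made in many tissues, with 66.7, 60.7 and 60.7 CPM in the DKO-labelled libraries, against 44.7, 48.6 and 46.0 CPM in WT libraries (log2 fold change 0.43, adjusted p = 0.0197). The count of 16 was 3 without WT 1, 5 without WT 3, 0 without DKO 1 and 5 without DKO 2. Each of the calls named here was lost in at least 1 of the 12 fits that left out 1 library.

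Fatty acid synthesis genes fell from the supply of carbon to the last steps. Of 27 tested genes 18 fell, against 7.09% of all tested genes, 1 rose and the median was -0.67. Scd1, the desaturase that makes oleate, had 156, 136 and 198 CPM in the DKO-labelled libraries, against 3266, 1749.8 and 3068 CPM in WT libraries (log2 fold change -4.05, SE 0.68, adjusted p = 0.00885). Scd2, its relative first known from brain, fell less, with 753, 710.1 and 771 CPM in the DKO-labelled libraries, against 1294, 1094 and 1158 CPM in WT libraries (log2 fold change -0.67, adjusted p = 0.00368). The Scd genes are close relatives, and reads placed at more than 1 site were not counted. Acaca, which commits carbon to the pathway, had 84.1, 85.3 and 87.1 CPM in the DKO-labelled libraries, against 223, 150.2 and 205 CPM in WT libraries (log2 fold change -1.17, adjusted p = 0.00885). Fasn, the synthase, had 231, 253 and 222 CPM in the DKO-labelled libraries, against 547, 382 and 497 CPM in WT libraries (log2 fold change -1.01, adjusted p = 0.0131). Pcx, Acly and Acss2, which supply its carbon, fell (log2 fold change -2.79, adjusted p = 0.0129, log2 fold change -0.47, adjusted p = 0.015, and log2 fold change -1.75, adjusted p = 0.0172). Elovl3, an elongase of brown fat and sebaceous glands, had 0.376, 0.265 and 0.495 CPM in the DKO-labelled libraries, against 36.7, 12.1 and 28.9 CPM in WT libraries (log2 fold change -6.08, adjusted p = 0.00974), among the deepest falls. Acss1, the mitochondrial form of Acss2, rose (log2 fold change 0.93, adjusted p = 0.0121). The count of 18 was 4 without WT 1, 8 without WT 3, 2 without DKO 1 and 8 without DKO 2. With 1 library left out at a time, all 12 fits called Scd2 and Acaca, and each other call named here was lost in at least 1 fit.

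Many cholesterol synthesis genes fell by smaller amounts. Of 27 tested genes of the pathway and targets of its regulator SREBP2 19 fell, against 7.09% of all tested genes, 1 rose and the median was -0.42. Their promoters are shown for 3 of the called enzymes because these genes moved together. Capitals mark the CCAAT box, CCAAT or its reverse complement ATTGG, at chr10:76531518-76531572 on the plus strand (Lss), chr1:169969206-169969242 on the minus strand (Hsd17b7) and chr5:4104698-4104751 on the minus strand (Cyp51), RefSeq windows on GRCm38.p6.
Lss: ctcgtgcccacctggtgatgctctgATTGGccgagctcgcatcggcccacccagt
Hsd17b7: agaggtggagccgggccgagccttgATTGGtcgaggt
Cyp51: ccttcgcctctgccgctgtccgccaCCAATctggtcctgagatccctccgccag
The box was present in 17 of 19 pathway genes with a window (89.5%), against 42.4% of all tested genes with one. Among called genes with a window it was in 43.7% of those lower and in 42.7% of those higher. The sterol element TCACNCCAC, searched on both strands, was in 0 of 19 of them and in 1.41% of all tested genes with a window. Lss, which closes the sterol rings, had 49.6, 48.3 and 48.3 CPM in the DKO-labelled libraries, against 91.0, 74.9 and 85.0 CPM in WT libraries (log2 fold change -0.78, SE 0.12, adjusted p = 0.00584). Fdft1, the first committed enzyme, had 49.0, 48.5 and 49.2 CPM in the DKO-labelled libraries, against 69.2, 61.1 and 63.1 CPM in WT libraries (log2 fold change -0.40, adjusted p = 0.00505). Cyp51, a demethylase of the sterol core, had 152, 144 and 144 CPM in the DKO-labelled libraries, against 205, 185 and 192 CPM in WT libraries (log2 fold change -0.40, adjusted p = 0.00856). The spread within the DKO-labelled libraries and within the WT libraries was small beside these differences. Fdps, Sqle, Hsd17b7, Nsdhl and Dhcr7 fell likewise, with log2 fold changes of -0.50, -0.32, -0.54, -0.64 and -0.73. Insig1, which holds the regulator in the endoplasmic reticulum and is also a Pparg target, fell furthest of those named here (log2 fold change -1.23, adjusted p = 0.0187). Ggps1, a branch enzyme toward protein prenylation, rose slightly (log2 fold change 0.13, adjusted p = 0.0479). The count of 19 was 7 without WT 1 and 10 without DKO 1. The calls of Lss, Fdft1, Cyp51, Fdps and Hsd17b7 were made in all 12 fits that left out 1 library, unlike the other calls named here.

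Many genes of fat burning fell. Of 33 tested genes of mitochondrial and peroxisomal fatty acid oxidation 18 fell, against 7.09% of all tested genes, 1 rose and the median was -0.62. Abcd2, a peroxisomal fatty acid transporter, had 5.89, 4.53 and 4.76 CPM in the DKO-labelled libraries, against 47.0, 19.7 and 36.9 CPM in WT libraries (log2 fold change -2.77, SE 0.59, adjusted p = 0.0174). In mitochondria Cpt2, the inner carnitine transferase, and Hadhb, a subunit of the trifunctional enzyme, fell (log2 fold change -0.89, adjusted p = 0.0203, and log2 fold change -1.0, adjusted p = 0.0267). Cpt1a, the outer carnitine transferase, rose slightly, with 116, 114 and 126 CPM in the DKO-labelled libraries, against 107, 96.1 and 102 CPM in WT libraries (log2 fold change 0.22, adjusted p = 0.0195). The 18 falls in this list were 0 without WT 1, 1 without WT 3, 0 without DKO 1, 0 without DKO 2 and 5 without DKO 3. Of 23 citric acid cycle genes 10 fell and 0 rose (median -0.28). They included Cs, the synthase that starts the cycle (log2 fold change -0.43, adjusted p = 0.0213), Dlat, of the pyruvate dehydrogenase complex (log2 fold change -0.50, adjusted p = 0.0205), and Mdh2 (log2 fold change -0.27, adjusted p = 0.0299). Of 22 genes of branched-chain amino acid breakdown 8 fell and 0 rose (median -0.30). Among them were Bcat2, the first step (log2 fold change -0.38, adjusted p = 0.0185), and Bckdha, of the committed dehydrogenase (log2 fold change -0.48, adjusted p = 0.0212). These counts of 10 and 8 ranged from 0 to 17 and from 0 to 15 when 1 library was left out, with 0 for both without WT 1 and without DKO 1. Each of the calls named here was lost in at least 1 of the 12 fits that left out 1 library.

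In the respiratory chain 13 of 54 tested nuclear subunit genes fell, against 7.09% of all tested genes, and 0 rose, with a median of -0.17. Cycs, cytochrome c, had 30.2, 30.9 and 29.6 CPM in the DKO-labelled libraries, against 55.0, 43.9 and 56.6 CPM in WT libraries (log2 fold change -0.78, adjusted p = 0.0145). Ndufv1, of complex I, and Atp5b, of the ATP synthase, fell (log2 fold change -0.36, adjusted p = 0.0251, and log2 fold change -0.29, adjusted p = 0.0244). The 13 were 0 without WT 1, 0 without WT 3, 22 without Ing1-KO 1, 0 without DKO 1, 2 without DKO 2 and 3 without DKO 3. None of the 12 tested mRNAs encoded in the mitochondrial genome was called, although all had negative values (median -0.19), as with mt-Co1, a core subunit of complex IV, at 4731 ± 307 CPM in the DKO-labelled libraries and 5108 ± 222 CPM in WT libraries. In edgeR's test 5 of the 12 were lower at an unadjusted p under 0.05, and DESeq2 called 3 lower and limma-voom 0. Over all 16163 tested genes 4656 had such a p in either direction. Glycolysis had 2 falls among 18 genes and 0 rises (median -0.11). These were Pfkfb3 (log2 fold change -0.45, adjusted p = 0.0337) and Pfkl (log2 fold change -0.24, adjusted p = 0.0352), which set and carry out the committed step. Of 23 genes of glucose uptake and insulin signalling 4 fell and 0 rose (median -0.25). They were Irs3, an insulin receptor substrate of rodent fat cells (log2 fold change -2.90, adjusted p = 0.023), and Akt2, the insulin-responsive kinase (log2 fold change -0.27, adjusted p = 0.0202), besides Cav1, of caveolae (log2 fold change -0.37, adjusted p = 0.0143), and Pde3b, the phosphodiesterase by which insulin restrains lipolysis (log2 fold change -1.33, adjusted p = 0.0105). Slc2a4, the insulin-responsive glucose transporter, had 0.869, 0.817 and 0.969 CPM in the DKO-labelled libraries, against 4.97, 2.08 and 5.59 CPM in WT libraries and did not pass the test (log2 fold change -2.25, adjusted p = 0.0547). Genes typical of brown and beige fat had 7 falls among 20 and 0 rises (median -0.81). Ucp1, the thermogenic uncoupler, had 0.0235, 0.0883 and 0.0619 CPM in the DKO-labelled libraries, against 1.01, 0.325 and 1.31 CPM in WT libraries (log2 fold change -3.87, adjusted p = 0.0212). Cox8b had 2 reads over the DKO-labelled libraries and 121 over the WT libraries, a WT to DKO ratio of 57.0 (log2 fold change -5.60, adjusted p = 0.0154). All 3 WT libraries held little Ucp1 as well. No call named here was made in all 12 fits that left out 1 library.

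Macrophage genes were higher. Of 38 tested members of the macrophage list all 38 had positive values, 13 rose, against 5.94% of all tested genes, and 0 fell, with a median log2 fold change of 0.86. For 36 of them every DKO-labelled library lay above every WT library, against 17.6% of all tested genes. Macrophages arise in embryos from yolk sac and liver progenitors, depend on the receptor Csf1r and the factor PU.1 (Spi1), and can be carried along in fibroblast cultures. Promoters of 3 called members are shown, with the core of the PU.1 motif, AGGAAGT or its reverse complement ACTTCCT, in capitals, at chr3:87263568-87263624 on the minus strand (Fcrls), chr1:138175332-138175388 on the minus strand (Ptprc) and chr2:14229178-14229234 on the plus strand (Mrc1), from RefSeq windows on GRCm38.p6.
Fcrls: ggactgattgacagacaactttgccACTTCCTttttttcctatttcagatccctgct
Ptprc: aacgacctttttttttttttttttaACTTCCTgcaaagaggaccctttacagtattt
Mrc1: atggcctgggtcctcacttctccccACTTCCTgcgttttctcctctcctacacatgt
The core was in 12 of 26 macrophage genes with a window (46.2%), in 25.6% of the called genes at least 2-fold higher and in 10.6% of all tested genes with one. Fcrls, a receptor of tissue macrophages and microglia, had 329.5, 276 and 286 CPM in the DKO-labelled libraries, against 62.5, 83.6 and 71.0 CPM in WT libraries (log2 fold change 2.04, SE 0.40, adjusted p = 0.0147). Mrc1, the mannose receptor, had 530.3, 440.4 and 530.0 CPM in the DKO-labelled libraries, against 187, 208 and 213 CPM in WT libraries (log2 fold change 1.30, adjusted p = 0.0287). Adgre1, which encodes the F4/80 antigen, had 583, 594 and 585 CPM in the DKO-labelled libraries, against 239, 279 and 283 CPM in WT libraries (log2 fold change 1.14, adjusted p = 0.0297). Csf1r itself had 384, 378 and 374 CPM in the DKO-labelled libraries, against 182, 198 and 206 CPM in WT libraries (log2 fold change 0.95, adjusted p = 0.0317). Replicates lay close together for these genes within the DKO-labelled libraries and within the WT libraries. Ms4a7, Aif1 and Cd163, further macrophage membrane and actin-binding proteins, rose more (log2 fold change 1.52, adjusted p = 0.012, log2 fold change 1.64, adjusted p = 0.0151, and log2 fold change 1.97, adjusted p = 0.0157). Ptprc, the pan-leukocyte CD45, and C1qc, of complement C1q, rose (log2 fold change 0.86, adjusted p = 0.0236, and log2 fold change 1.13, adjusted p = 0.0341). All of the calls named here were lost in 1 or more of the 12 fits without 1 library.

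Some abundant macrophage genes had values that did not overlap but missed the threshold. Lyz2, lysozyme, had 4949.9, 4577 and 4412 CPM in the DKO-labelled libraries, against 2628, 2765 and 3045 CPM in WT libraries (log2 fold change 0.72, adjusted p = 0.183). Spi1 had 33.3, 36.6 and 37.4 CPM in the DKO-labelled libraries, against 19.8, 22.7 and 23.3 CPM in WT libraries (log2 fold change 0.70, adjusted p = 0.0546). Tyrobp, an adaptor of activating receptors, had 108, 115 and 112 CPM in the DKO-labelled libraries, against 56.7, 62.5 and 66.9 CPM in WT libraries (log2 fold change 0.85, adjusted p = 0.0672). Cd14, the lipopolysaccharide coreceptor, which fibroblasts also express, was near the WT level, at 26.6 ± 0.825 CPM in the DKO-labelled libraries and 25.7 ± 0.566 CPM in WT libraries. The 13 calls rested on single libraries more than the values did: the count was 0 without WT 1, 5 without WT 2, 2 without WT 3, 34 without Gadd45a-KO 1, 0 without DKO 1, 4 without DKO 2 and 5 without DKO 3. Gadd45a-KO 1 was low in these genes and adds to the estimated spread. Summed over all 40 members with an identifier, the level was 11035, 10427 and 10617 CPM in DKO-labelled libraries, 3038, 8526 and 7911 CPM in Gadd45a-KO libraries, 6589, 5660.5 and 6448 CPM in Ing1-KO libraries and 5428, 5899 and 6248 CPM in WT libraries. Each DKO-labelled library was above each of the other 9. As with the fat cell genes, more macrophages and more of these RNAs per macrophage cannot be told apart.

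Markers of other cell types were mostly at low levels or overlapped between the genotypes. Of all tested genes 5.94% were called higher and 7.09% lower. Of 10 tested osteoclast genes 1 rose, Tnfrsf11a, the receptor RANK (log2 fold change 0.46, adjusted p = 0.0213), and 0 fell. Summed levels in DKO-labelled libraries, against WT libraries, were 1.46 to 1.81 against 1.08 to 1.33 CPM for T, B and NK cells, and 0.769 to 0.873 against 0.605 to 1.33 CPM for mast cells and granulocytes. They were 0.326 to 0.609 against 0.281 to 0.458 CPM for erythroid cells, and 81.7 to 119 against 89.5 to 101 CPM for skeletal muscle. None of the 2, 3, 1 and 9 tested members of these 4 lists was called. Endothelial genes summed to 232 to 312 against 247 to 282 CPM, with Pecam1 (log2 fold change 1.20, adjusted p = 0.0359) and Erg (log2 fold change 0.98, adjusted p = 0.0462) higher and Egfl7 (log2 fold change -0.94, adjusted p = 0.0138) lower among 11. Pecam1 is also made by leukocytes. The epithelial list had 1 fall among 5, Krt18 (log2 fold change -1.51, adjusted p = 0.0467), with sums of 12.8 to 15.6 against 15.3 to 16.6 CPM. The list of neurons and glia had 1 fall among 12, S100b (log2 fold change -1.39, adjusted p = 0.0411), which fat cells also make, with sums of 108 to 121 against 137 to 153 CPM. Each of the calls named here was lost in at least 1 of the 12 fits that left out 1 library.

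Many lysosomal genes rose beside the macrophage genes. Of 40 tested lysosomal enzymes and membrane proteins 24 rose, against 5.94% of all tested genes, and 0 fell, with a median of 0.25. Every DKO-labelled library lay above every WT library for 32 of them, against 17.6% of all tested genes. Stretches of 3 called members are shown because many lysosomal genes share the CLEAR element, the palindrome TCACGTGA that factors of the TFEB family bind. They lie at chr2:164833735-164833772 on the plus strand (Ctsa), chr16:44139359-44139416 on the minus strand (Atp6v1a) and chrX:134601168-134601225 on the minus strand (Gla), from RefSeq windows on GRCm38.p6 with the element in capitals.
Ctsa: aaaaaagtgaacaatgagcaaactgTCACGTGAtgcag
Atp6v1a: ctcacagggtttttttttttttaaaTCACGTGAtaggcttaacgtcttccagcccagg
Gla: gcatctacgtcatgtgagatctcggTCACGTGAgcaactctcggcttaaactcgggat
It was in 6 of 32 list members with a window (18.8%) and in 2% of all tested genes with one. Among genes called higher with a window it was in 2.85%, and in 0% of those at least 2-fold higher. Hexa, a subunit of a hexosaminidase that degrades gangliosides, had 240.3, 249.7 and 249 CPM in the DKO-labelled libraries, against 176, 185 and 183 CPM in WT libraries (log2 fold change 0.44, SE 0.052, adjusted p = 0.00167). Lipa, the acid lipase, had 260.4, 255 and 257 CPM in the DKO-labelled libraries, against 180.1, 183 and 198 CPM in WT libraries (log2 fold change 0.46, adjusted p = 0.0028). Lamp1, a major membrane protein of the lysosome, had 913, 908 and 913 CPM in the DKO-labelled libraries, against 738, 751 and 763 CPM in WT libraries (log2 fold change 0.28, adjusted p = 0.00257). These differences were small in fold but several times the spread between replicates. Lgmn, the asparaginyl protease of antigen-presenting cells, had 505, 483 and 481 CPM in the DKO-labelled libraries, against 217, 240.0 and 251 CPM in WT libraries (log2 fold change 1.05, adjusted p = 0.0205). The cathepsins Ctsb, Ctsc and Ctsd rose (log2 fold change 0.68, adjusted p = 0.0381, log2 fold change 0.99, adjusted p = 0.0188, and log2 fold change 0.47, adjusted p = 0.0381). Ctsa, Atp6v1a and Gla had log2 fold changes of 0.34, 0.31 and 0.51. The level summed over the list was 13714, 13692 and 14035 CPM in DKO-labelled libraries, against 10643, 10387 and 10937 CPM in WT libraries. Macrophages are rich in lysosomes, and the part of the macrophage genes in this result was not tested. The 24 calls were 6 without WT 1, 13 without WT 2, 8 without WT 3, 7 without DKO 1 and 8 without DKO 2. Whichever of the 12 libraries was left out, Hexa, Lipa and Lamp1 kept the call, and the other genes named as called here did not.

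**Figure D3:**
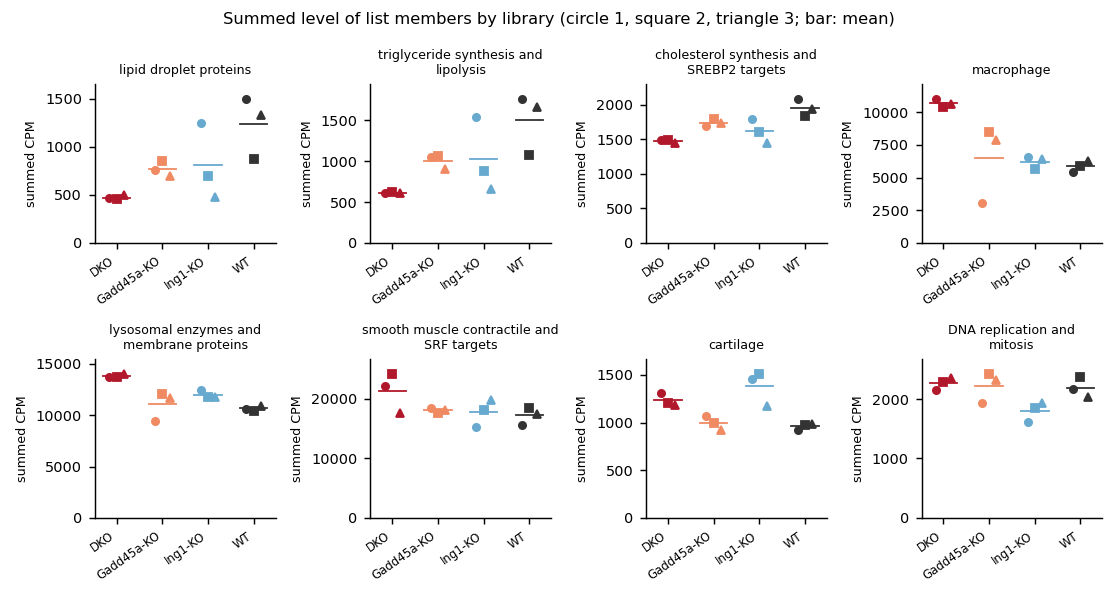
Summed level in CPM (y axis) of the members of 8 lists in each of the 12 libraries, by genotype label (x axis), with a bar at the mean of 3 libraries. In the DKO-labelled libraries the lipid droplet, triglyceride and cholesterol lists lie below all WT points and the macrophage and lysosome lists above them, while the replication list overlaps between DKO and WT.

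Several chemokines fell. Of 27 tested chemokine ligands 5 fell and 1 rose, against 7.09% and 5.94% of all tested genes, and the median was -0.03. Ccl2, which draws monocytes, had 60.9, 70.9 and 74.4 CPM in the DKO-labelled libraries, against 119.8, 109 and 125 CPM in WT libraries (log2 fold change -0.78, SE 0.071, adjusted p = 0.000573). Its neighbour and relative Ccl7 had 67.8, 69.4 and 77.5 CPM in the DKO-labelled libraries, against 125, 109 and 122 CPM in WT libraries (log2 fold change -0.73, adjusted p = 0.000388). Ccl11, which draws eosinophils, and Cxcl5, which draws neutrophils, fell by more (log2 fold change -1.40, adjusted p = 0.0124, and log2 fold change -1.24, adjusted p = 0.032). Cxcl2 fell (log2 fold change -0.74, adjusted p = 0.0444), and Ccl20 rose at a low level (log2 fold change 1.5, adjusted p = 0.0381). Of 29 cytokines and receptors 3 rose and 6 fell, against the same 5.94% and 7.09%. The falls included both ligands of the macrophage receptor Csf1r. Csf1 had 273, 314 and 291 CPM in the DKO-labelled libraries, against 364, 373 and 403 CPM in WT libraries (log2 fold change -0.38, adjusted p = 0.0302). Il34 had 4.81, 4.22 and 4.74 CPM in the DKO-labelled libraries, against 10.7, 7.80 and 9.60 CPM in WT libraries (log2 fold change -1.03, adjusted p = 0.0176). Il1rn, the antagonist of interleukin 1, rose, with 57.3, 58.0 and 77.2 CPM in the DKO-labelled libraries, against 35.7, 29.8 and 49.9 CPM in WT libraries (log2 fold change 0.74, adjusted p = 0.0338). Il10rb (log2 fold change 0.50, adjusted p = 0.0283) and Il15 (log2 fold change 0.79, adjusted p = 0.0407) rose too. Receptors that fell were Il1r1, Il1rl1, Osmr and Tnfrsf1a (log2 fold changes -0.43, -0.79, -0.26 and -0.23). With 1 library left out at a time, all 12 fits called Ccl2 and Ccl7, and each other call named here was lost in at least 1 fit.

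Of 24 complement and acute phase genes 7 fell and 1 rose, against 7.09% and 5.94% of all tested genes, and the median was -0.70. Hp, haptoglobin, which fat cells also make, had 26.1, 31.4 and 27.1 CPM in the DKO-labelled libraries, against 381, 176 and 357 CPM in WT libraries (log2 fold change -3.43, adjusted p = 0.0152). Lrg1, another secreted acute phase protein, had 0.892, 0.618 and 0.701 CPM in the DKO-labelled libraries, against 39.3, 14.4 and 30.1 CPM in WT libraries (log2 fold change -5.25, adjusted p = 0.00832). Orm1, an acute phase carrier with near-identical relatives that may share reads, had 2 reads over the DKO-labelled libraries and 439 over the WT libraries, a WT to DKO ratio of 207 (57.0 to 1714, exact 95% counting interval; log2 fold change -7.46, adjusted p = 0.00257). Steap4, a metalloreductase of fat cells, had 4.23, 3.11 and 7.96 CPM in the DKO-labelled libraries, against 73.0, 35.5 and 70.9 CPM in WT libraries (log2 fold change -3.54, adjusted p = 0.0151). The count of 7 was 2 without WT 1, 4 without WT 3, 14 without Ing1-KO 3, 2 without DKO 1 and 3 without DKO 2. Few interferon-stimulated genes were called: of 38 tested 1 fell, Isg20, an exonuclease (log2 fold change -0.53, adjusted p = 0.0148), 0 rose, and the median was -0.02. The calls of Lrg1 and Orm1 were made in all 12 fits that left out 1 library, unlike the other calls named here.

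Contractile genes were high in DKO 1 and DKO 2 and not, as a list, in DKO 3. Their summed level was 22181, 24197 and 17665 CPM in the DKO-labelled libraries 1 to 3, against 15673, 18393 and 17518 CPM in WT libraries, so DKO 3 lay within the WT range. All 28 tested members of the list of smooth muscle contractile genes and targets of SRF had positive values, 7 rose, against 5.94% of all tested genes, and 0 fell, with a median of 0.32. All DKO values lay above all WT values for 6 of the 28, a share near the 17.6% of all tested genes. Actg2, a smooth muscle actin, had 625, 703 and 305 CPM in the DKO-labelled libraries, against 173, 239 and 221 CPM in WT libraries (log2 fold change 1.37, SE 0.29, adjusted p = 0.0174). DKO 1 and DKO 2 were high, and DKO 3 lay between them and the WT libraries. Myh11, the smooth muscle myosin, had 357, 420.0 and 206 CPM in the DKO-labelled libraries, against 131, 176 and 177 CPM in WT libraries (log2 fold change 1.02, adjusted p = 0.0469). Mylk, its activating kinase, had 243, 247 and 184 CPM in the DKO-labelled libraries, against 137, 148 and 159 CPM in WT libraries (log2 fold change 0.60, adjusted p = 0.0164). Myocd, the coactivator of SRF, Cnn1, Tpm1 and Ankrd1 also rose (log2 fold change 0.72, adjusted p = 0.0202, log2 fold change 0.71, adjusted p = 0.0446, log2 fold change 0.49, adjusted p = 0.0343, and log2 fold change 1.14, adjusted p = 0.0444). Acta2, the actin of myofibroblasts, had 4523, 4949 and 3447 CPM in the DKO-labelled libraries, against 2757, 3542 and 3328 CPM in WT libraries, with overlap, and did not pass the test (log2 fold change 0.42, adjusted p = 0.106). The CArG box, the element SRF binds, was in 5 of 23 members with a promoter window (21.7%) and in 1.61% of all tested genes with one. Among genes called higher with a window it was in 3.12%, and in 0.8% of those at least 2-fold higher. The list holds targets of SRF by its making, so its share of the box describes the list and is not a result of this comparison. The count of 7 was 0 without WT 1, 3 without WT 2, 1 without WT 3, 4 without Gadd45a-KO 1, 4 without Gadd45a-KO 2, 3 without Gadd45a-KO 3, 3 without Ing1-KO 2, 0 without DKO 1, 0 without DKO 2 and 18 without DKO 3. No call named here was made in all 12 fits that left out 1 library.

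Matrix genes were called in both directions, beside 5.94% of all tested genes called higher and 7.09% called lower. Of 22 elastic fibre genes 2 rose and 2 fell (median -0.08). Eln, elastin, had 1146, 1241 and 557 CPM in the DKO-labelled libraries, against 188, 176 and 219 CPM in WT libraries (log2 fold change 2.34, SE 0.42, adjusted p = 0.011), again with DKO 3 between the other DKO-labelled libraries and WT. Ltbp1, which anchors latent TGF-beta, had 277, 306 and 226 CPM in the DKO-labelled libraries, against 150.2, 173 and 165 CPM in WT libraries (log2 fold change 0.73, adjusted p = 0.00983). Fbln2 (log2 fold change -0.25, adjusted p = 0.0176) and Efemp2 (log2 fold change -0.39, adjusted p = 0.0213), fibulins of the fibre, fell. Of 25 collagen genes outside cartilage 1 rose, Col8a2 (log2 fold change 0.57, adjusted p = 0.0381), and 6 fell (median -0.17). Col6a1 and Col6a2, of the beaded filaments around fat cells and fibroblasts, were among the falls (log2 fold change -0.27, adjusted p = 0.0201, and log2 fold change -0.25, adjusted p = 0.0263), as were Col15a1, of the basement membrane zone (log2 fold change -0.80, adjusted p = 0.0339), and Col5a3 (log2 fold change -0.49, adjusted p = 0.01). Of 29 matrix proteases and inhibitors 2 rose, the activator Plau (log2 fold change 0.45, adjusted p = 0.0214) and the inhibitor Serpine2 (log2 fold change 0.55, adjusted p = 0.032). The 4 that fell were Mmp19 and the ADAMTS family proteases Adamts1, Adamts2 and Adamts5 (log2 fold changes -0.32, -0.55, -0.48 and -0.60). In all 12 fits that left out 1 library Adamts1 and Adamts2 kept the call, and every other gene named as called here lost it at least once.

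Cartilage genes split. Of 22 tested 5 rose and 4 fell, against 5.94% and 7.09% of all tested genes, and the median was 0.01. Acan, the large proteoglycan aggrecan, had 18.8, 26.5 and 12.5 CPM in the DKO-labelled libraries, against 3.17, 3.42 and 3.64 CPM in WT libraries (log2 fold change 2.50, SE 0.50, adjusted p = 0.0151). Col10a1, the collagen of hypertrophic cartilage, had 13.9, 16.2 and 6.04 CPM in the DKO-labelled libraries, against 1.66, 2.21 and 2.03 CPM in WT libraries (log2 fold change 2.61, adjusted p = 0.00406). Ing1-KO libraries were also high, at 18.4, 58.6 and 22.4 CPM for Acan and 8.94, 10.0 and 9.56 CPM for Col10a1. Col2a1 and Col11a1, fibrillar cartilage collagens, and Matn1 rose (log2 fold change 1.16, adjusted p = 0.0218, log2 fold change 0.58, adjusted p = 0.0151, and log2 fold change 1.32, adjusted p = 0.0425). Their regulator Sox9 fell, as given above. So did Prg4, the joint lubricant, with 2.04, 2.34 and 2.27 CPM in the DKO-labelled libraries, against 8.52, 5.29 and 7.39 CPM in WT libraries (log2 fold change -1.67, adjusted p = 0.00885), and Cilp (log2 fold change -2.21, adjusted p = 0.0304). Of 13 bone genes 1 rose, Dlx5, a factor upstream of osteoblast genes, with 0.423, 0.265 and 0.227 CPM in the DKO-labelled libraries, against 0.126, 0.0650 and 0.119 CPM in WT libraries (log2 fold change 1.51, adjusted p = 0.0495), and 0 fell. Runx2, the master factor of bone, was at 16.8 ± 0.694 CPM in the DKO-labelled libraries and 17.7 ± 0.273 CPM in WT libraries. Calls that were made in all 12 fits without 1 library were those of Col10a1 and Prg4.

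Of 26 marker genes of fibroblasts and fat cell precursors 2 rose and 6 fell (median -0.18), against 5.94% and 7.09% of all tested genes. Pdgfra, the receptor that marks fat cell precursors, had 309.6, 295 and 450.0 CPM in the DKO-labelled libraries, against 644, 572 and 576 CPM in WT libraries (log2 fold change -0.77, adjusted p = 0.0119). Nt5e, the ecto-nucleotidase CD73, had 20.7, 19.5 and 37.6 CPM in the DKO-labelled libraries, against 86.3, 59.1 and 66.7 CPM in WT libraries (log2 fold change -1.44, adjusted p = 0.0108). Ly6a, the antigen Sca-1, fell (log2 fold change -0.66, adjusted p = 0.0107). Ly6a and Ly6c1 belong to a family of close relatives. DKO 3 was the nearest to WT for these genes. Fap, a protease of activated fibroblasts, rose, with 15.4, 14.9 and 11.7 CPM in the DKO-labelled libraries, against 7.49, 7.39 and 6.91 CPM in WT libraries (log2 fold change 0.95, adjusted p = 0.0089). Meox1, a mesodermal factor, rose as well, with 7.00, 8.50 and 4.39 CPM in the DKO-labelled libraries, against 1.13, 1.47 and 1.85 CPM in WT libraries (log2 fold change 2.15, adjusted p = 0.0106). Of the calls named here, that of Fap was made in all 12 fits without 1 library, and the others were not.

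**Figure D4:**
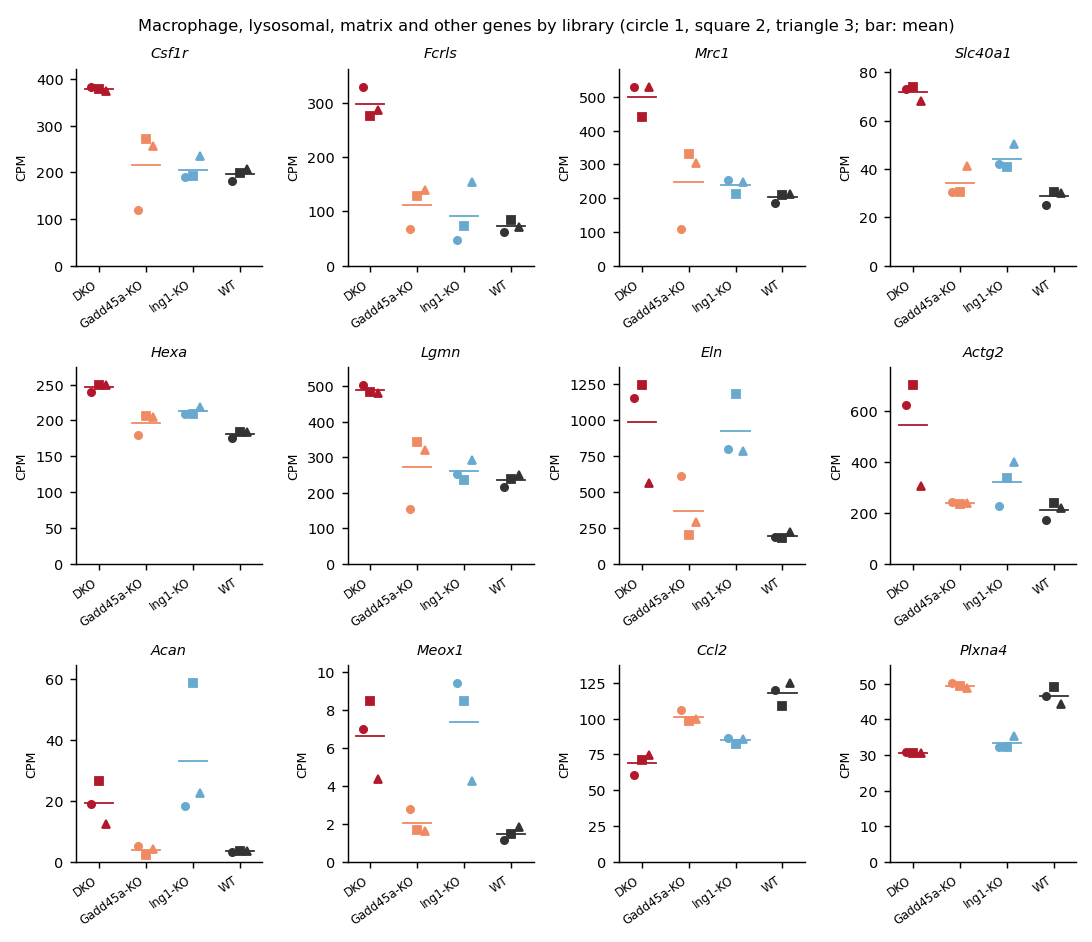
Levels in CPM (y axis) of 12 genes in each of the 12 libraries, by genotype label (x axis), with a bar at the mean of 3 libraries. For Csf1r, Fcrls, Mrc1, Slc40a1, Hexa and Lgmn all DKO points lie above all WT points, for Eln and Actg2 DKO 3 (triangle) lies below DKO 1 and DKO 2, Ing1-KO is also high for Acan and Meox1, and Ccl2 and Plxna4 are lower in DKO than in WT.

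Signalling genes were called in both directions, beside 5.94% of all tested genes called higher and 7.09% called lower. Of 41 Wnt ligands, receptors and antagonists 3 rose and 4 fell. Lgr5 and Lgr4, receptors of R-spondins, fell: Lgr5 had 269.7, 215 and 452 CPM in the DKO-labelled libraries, against 651, 598 and 589 CPM in WT libraries (log2 fold change -0.97, adjusted p = 0.0223). Lgr4 had 60.7, 60.5 and 76.8 CPM in the DKO-labelled libraries, against 99.3, 93.2 and 90.7 CPM in WT libraries (log2 fold change -0.52, adjusted p = 0.00856). Among Frizzled receptors Fzd1 fell (log2 fold change -0.56, adjusted p = 0.0203), while Fzd6 and Fzd5 rose (log2 fold change 1.16, adjusted p = 0.0131, and log2 fold change 0.26, adjusted p = 0.0435). Dkk3 rose (log2 fold change 0.22, adjusted p = 0.0196), and Lrp5 fell (log2 fold change -0.15, adjusted p = 0.0448). Of 14 Wnt target genes 2 fell, Lgr5 and Nkd2 (log2 fold change -0.53, adjusted p = 0.0144), and 0 rose (median -0.25). Whichever of the 12 libraries was left out, Lgr4 kept the call, and the other genes named as called here did not.

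In the TGF-beta and BMP list 4 of 50 genes rose and 7 fell, against 5.94% and 7.09% of all tested genes. Tgfbr3, the coreceptor betaglycan, had 89.0, 81.9 and 143 CPM in the DKO-labelled libraries, against 259, 212 and 227 CPM in WT libraries (log2 fold change -1.15, adjusted p = 0.0112), and Tgfbr1, the type I receptor, rose (log2 fold change 0.32, adjusted p = 0.0113). Acvr1c, the receptor ALK7 of fat cells, had 0.423, 0.221 and 0.495 CPM in the DKO-labelled libraries, against 15, 6.42 and 15.1 CPM in WT libraries (log2 fold change -4.99, adjusted p = 0.0149). The BMP antagonist Grem1 fell, with 274, 282 and 256 CPM in the DKO-labelled libraries, against 401, 363 and 401 CPM in WT libraries (log2 fold change -0.52, adjusted p = 0.0109). The ligands Bmp4, Bmp5 and Tgfb2 rose (log2 fold changes 0.90, 1.00 and 0.83), while Bmp6 and Inhbb fell (-1.45 and -0.59). Of 36 genes of FGF, PDGF, EGF and related families 3 rose, Pdgfc, Nrg1 and Ntf3 (log2 fold changes 0.46, 0.55 and 2.32), and 8 fell. Vegfa, the angiogenic factor, had 272, 279 and 270.3 CPM in the DKO-labelled libraries, against 333, 340.4 and 339.6 CPM in WT libraries (log2 fold change -0.30, adjusted p = 0.00498). Vegfc, which acts on lymphatic vessels, had 6.71, 5.87 and 8.54 CPM in the DKO-labelled libraries, against 13.2, 12.7 and 12.6 CPM in WT libraries (log2 fold change -0.86, adjusted p = 0.00532). Gdnf, a neurotrophic ligand, Fgf7, Fgf1 and Kitl fell (log2 fold change -1.28, adjusted p = 0.00201, log2 fold change -0.41, adjusted p = 0.0115, log2 fold change -1.14, adjusted p = 0.0106, and log2 fold change -1.17, adjusted p = 0.0233). With 1 library left out at a time, all 12 fits called Vegfa, Vegfc and Gdnf, and each other call named here was lost in at least 1 fit.

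Of 23 Notch and Hedgehog genes Nrarp, a feedback target of Notch, rose (log2 fold change 2.58, adjusted p = 0.0328). The falls included Gli2, an effector of Hedgehog signalling, and Jag2, a Notch ligand (log2 fold change -0.29, adjusted p = 0.0299, and log2 fold change -0.84, adjusted p = 0.0357). Of 19 genes of the IGF axis 3 rose and 2 fell, against 5.94% and 7.09% of all tested genes. Igf1, the ligand, had 379, 323 and 409.9 CPM in the DKO-labelled libraries, against 294, 308 and 306 CPM in WT libraries (log2 fold change 0.29, adjusted p = 0.045). The other rises were Igfbp2 (log2 fold change 0.38, adjusted p = 0.0344) and Igf2bp3 (log2 fold change 0.25, adjusted p = 0.0157), and the falls were Igfbp6 (log2 fold change -0.50, adjusted p = 0.0106) and Ghr, the growth hormone receptor (log2 fold change -0.72, adjusted p = 0.0305). No gene named here was called in all 12 fits that left out 1 library.

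Positional genes moved in both directions. Of 35 tested Hox genes 4 fell, against 7.09% of all tested genes, and 0 rose. Hoxd3 had 3.08, 2.74 and 2.72 CPM in the DKO-labelled libraries, against 5.77, 5.66 and 4.82 CPM in WT libraries (log2 fold change -0.93, adjusted p = 0.00161). The others were Hoxd8 (log2 fold change -0.42, adjusted p = 0.0373), Hoxd9 (log2 fold change -0.74, adjusted p = 0.0293) and Hoxc11 (log2 fold change -0.97, adjusted p = 0.0467). Of 44 other patterning factors 4 rose and 4 fell, against 5.94% and 7.09% of all tested genes: Pax1, Eya1, Pax9 and Dlx5 rose (log2 fold changes 1.88, 0.90, 0.80 and 1.51), and the falls included Tbx1, Tbx15 and Tbx18 (-0.88, -0.31 and -0.50). Of 36 imprinted genes 2 rose and 4 fell. Mest, a marker of expanding fat tissue, had 104, 83.6 and 85.6 CPM in the DKO-labelled libraries, against 48.8, 35.5 and 48.5 CPM in WT libraries (log2 fold change 1.04, adjusted p = 0.0124), and Ing1-KO libraries were higher still, at 197, 213 and 129.7 CPM. Grb10, an adaptor that restrains insulin signalling, rose (log2 fold change 0.24, adjusted p = 0.0205). Slc22a3, an organic cation transporter, had 0.0470, 0 and 0.103 CPM in the DKO-labelled libraries, against 3.31, 1.58 and 2.63 CPM in WT libraries (log2 fold change -5.55, adjusted p = 0.00271), and Peg10, Ndn and Nap1l5 fell (log2 fold changes -0.93, -0.29 and -0.56). Of the calls named here, those of Hoxd3, Slc22a3 and Peg10 were made in all 12 fits without 1 library, and the others were not.

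No gene of 50 of DNA replication and mitosis was called in either direction, nor any of 17 CDK inhibitors, pocket proteins and regulators of p53. Mki67, the marker of dividing cells, had 233, 241 and 275 CPM in the DKO-labelled libraries, against 225, 243 and 203 CPM in WT libraries. Cdkn1a, the inhibitor p21, had 459, 474 and 407 CPM in the DKO-labelled libraries, against 441, 417 and 445 CPM in WT libraries. In edgeR's test 1 of the 50 and 3 of the 17 had an unadjusted p under 0.05, against 4656 of all tested genes, and DESeq2 and limma-voom called 0 of either list. Of 34 p53 target genes 3 rose and 1 fell, against 5.94% and 7.09% of all tested genes. The rises were Sesn1, a stress-induced regulator of TOR (log2 fold change 0.67, adjusted p = 0.0128), Pmaip1, which promotes cell death (log2 fold change 0.95, adjusted p = 0.0205), and Btg2, which slows growth (log2 fold change 0.29, adjusted p = 0.0205). Ddit4, an inhibitor of TOR, fell (log2 fold change -0.45, adjusted p = 0.00739). Of 12 tested replication-dependent histone genes 3 fell and 0 rose, Hist1h1c (log2 fold change -0.33, adjusted p = 0.00403), Hist1h2bc and Hist1h1d; most such mRNAs lack poly(A) tails, and the genes are near-identical copies. None of 41 tested cytosolic ribosomal protein genes was called (median -0.03), with 5 at an unadjusted p under 0.05 and 0 called by DESeq2 or limma-voom. The calls of Ddit4 and Hist1h1c were made in all 12 fits that left out 1 library, unlike the other calls named here.

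Stress and redox genes were called in both directions, with 13% of all tested genes called in either. Of 34 genes of the unfolded protein and integrated stress responses 5 rose and 1 fell. Atf3 (log2 fold change 0.72, adjusted p = 0.0168) and Slc7a11, the cystine importer (log2 fold change 0.42, adjusted p = 0.0295), rose most. The chaperones and helpers Hsp90b1, Manf and Edem1 rose less (log2 fold changes 0.14, 0.14 and 0.13), and Dnajb9 fell (-0.33). Of 41 antioxidant genes 4 rose, among them Gclm, of glutathione synthesis (log2 fold change 0.53, adjusted p = 0.0344), and Gsta3 (log2 fold change 1.27, adjusted p = 0.0389), and 8 fell. Prdx6, a peroxiredoxin with phospholipase activity, had 112, 116 and 115 CPM in the DKO-labelled libraries, against 154, 142 and 155 CPM in WT libraries (log2 fold change -0.39, adjusted p = 0.00139). Gstm2, a glutathione transferase with close relatives, had 41.6, 38.7 and 49.9 CPM in the DKO-labelled libraries, against 71.4, 68.1 and 73.2 CPM in WT libraries (log2 fold change -0.71, adjusted p = 0.00569). Sod2, the mitochondrial dismutase, fell (log2 fold change -0.76, adjusted p = 0.0177). Of the calls named here, those of Prdx6 and Gstm2 were made in all 12 fits without 1 library, and the others were not.

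The next counts stand beside 5.94% of all tested genes called higher and 7.09% called lower. Of 23 glucocorticoid receptor targets 1 rose, Arl4d (log2 fold change 0.53, adjusted p = 0.039), and 6 fell (median -0.24). Pdk4, a brake on glucose oxidation (log2 fold change -1.22, adjusted p = 0.0246), and Sgk1 (log2 fold change -0.24, adjusted p = 0.0357) fell beside Cebpd, Angptl4 and Ddit4. Fkbp5, the standard target, had 55.9, 58.7 and 57.7 CPM in the DKO-labelled libraries, against 62.4, 67.5 and 67 CPM in WT libraries and did not pass the test (log2 fold change -0.19, adjusted p = 0.108). Of 24 prostaglandin genes 4 rose and 4 fell. Hpgd, which inactivates prostaglandins, had 50.5, 45.1 and 45.7 CPM in the DKO-labelled libraries, against 10.3, 12.0 and 12.8 CPM in WT libraries (log2 fold change 2.01, adjusted p = 0.0154). Hpgds, which makes prostaglandin D and is found in macrophages and mast cells, rose (log2 fold change 1.12, adjusted p = 0.0205). Ptges and Ptgs1, which make prostaglandin E and its precursor, fell (log2 fold change -0.87, adjusted p = 0.0068, and log2 fold change -0.39, adjusted p = 0.00486). The receptors Ptger3 and Ptger4 fell as well (log2 fold change -1.33, adjusted p = 0.00677, and log2 fold change -0.36, adjusted p = 0.0151). Of 19 iron genes 1 rose and 4 fell. Slc40a1, the iron exporter ferroportin, which macrophages express, had 72.9, 74.0 and 68.2 CPM in the DKO-labelled libraries, against 25.1, 30.7 and 30.1 CPM in WT libraries (log2 fold change 1.32, adjusted p = 0.00118). Slc39a14, a metal importer, had 113, 109 and 127 CPM in the DKO-labelled libraries, against 238, 208 and 227 CPM in WT libraries (log2 fold change -0.95, adjusted p = 0.00373). The other falls were Heph (log2 fold change -1.32, adjusted p = 0.0357), Aco1 (log2 fold change -0.44, adjusted p = 0.0232) and Steap4. Whichever of the 12 libraries was left out, Ddit4, Ptges, Ptgs1, Ptger3, Slc40a1 and Slc39a14 kept the call, and the other genes called here did not.

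Other genes among the largest rises included several known from leukocytes. Cxcr4, a chemokine receptor, had 24.8, 24.6 and 20.3 CPM in the DKO-labelled libraries, against 5.22, 8.61 and 7.56 CPM in WT libraries (log2 fold change 1.70, adjusted p = 0.0324). Gpr34 and P2ry13, receptors of microglia and macrophages, rose (log2 fold change 2.00, adjusted p = 0.0295, and log2 fold change 1.79, adjusted p = 0.0196). So did Csf3r, Cd300a, Entpd1 and Cd83 (log2 fold changes 1.63, 1.59, 1.59 and 1.56). Further rises were those of Npl, which breaks down sialic acid (log2 fold change 1.81, adjusted p = 0.00885), Slc13a3, a dicarboxylate transporter (log2 fold change 1.78, adjusted p = 0.0257), and Adgb, androglobin (log2 fold change 2.15, adjusted p = 0.0131). Ptn, the growth factor pleiotrophin, had 923, 908 and 849 CPM in the DKO-labelled libraries, against 406, 511 and 421 CPM in WT libraries (log2 fold change 1.00, adjusted p = 0.00257), one of the largest differences in CPM. Further fat cell genes were among the deepest falls. Klb, the coreceptor of FGF21, had 0.0704, 0.0883 and 0.330 CPM in the DKO-labelled libraries, against 13.3, 5.48 and 10.8 CPM in WT libraries (log2 fold change -5.86, adjusted p = 0.0118). Others were Mrap, an accessory protein of melanocortin receptors (log2 fold change -5.30, adjusted p = 0.0105), Tshr, the thyrotropin receptor (log2 fold change -4.80, adjusted p = 0.0106), and Trarg1, which regulates glucose transporter traffic (log2 fold change -4.36, adjusted p = 0.0104). Lgals12, Adig, Ces1d and Aldh3b2 fell as far (log2 fold changes -5.38, -5.48, -5.31 and -6.34). The call of Ptn was made in all 12 fits that left out 1 library, and the other calls named here were not.

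The genes with the smallest adjusted p included many with small but even differences. Plxna4, a semaphorin receptor, had 30.7, 30.7 and 30.6 CPM in the DKO-labelled libraries, against 46.6, 49.0 and 44.2 CPM in WT libraries (log2 fold change -0.60, SE 0.048, adjusted p = 0.000231). Adcyap1r1, the receptor of the neuropeptide PACAP, had 1.74, 2.32 and 1.77 CPM in the DKO-labelled libraries, against 9.63, 7.46 and 8.74 CPM in WT libraries (log2 fold change -2.15, adjusted p = 0.000549). Olfm1, a secreted glycoprotein, had 14.7, 15.7 and 17.2 CPM in the DKO-labelled libraries, against 28.4, 25.6 and 25.5 CPM in WT libraries (log2 fold change -0.74, adjusted p = 0.000549). Vdr, the vitamin D receptor, had 46.9, 52.2 and 50.5 CPM in the DKO-labelled libraries, against 84.1, 73.2 and 73.4 CPM in WT libraries (log2 fold change -0.62, adjusted p = 0.00157). Syt13, a synaptotagmin, had 55.2, 53.4 and 75.1 CPM in the DKO-labelled libraries, against 153, 129 and 136 CPM in WT libraries (log2 fold change -1.19, adjusted p = 0.00161). No library of either genotype crossed into the other for these 5 genes. Among rises Prcp, a lysosomal carboxypeptidase, had 57.8, 53.5 and 54.0 CPM in the DKO-labelled libraries, against 39.2, 41.7 and 40.5 CPM in WT libraries (log2 fold change 0.45, adjusted p = 0.00118). Mef2c, a transcription factor of muscle and myeloid cells, had 51.7, 51.5 and 53.7 CPM in the DKO-labelled libraries, against 30.5, 37.1 and 36.0 CPM in WT libraries (log2 fold change 0.60, adjusted p = 0.00167). Slco2b1, an organic anion transporter, had 1.43, 1.1 and 0.887 CPM in the DKO-labelled libraries, against 0.147, 0.217 and 0.139 CPM in WT libraries (log2 fold change 2.75, adjusted p = 0.00139). Each of the calls named here was also made in all 12 fits that left out 1 library.

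**Figure D5:**
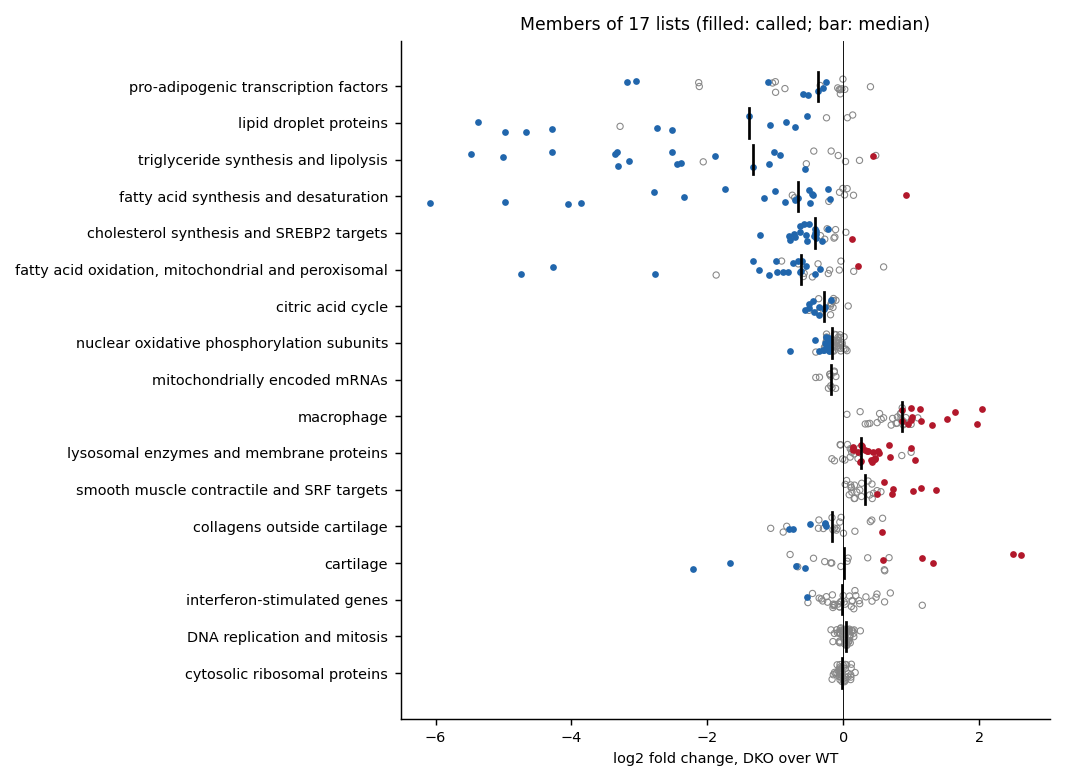
Each point is 1 tested member of 17 lists (rows), placed by its log2 fold change, DKO over WT (x axis), filled red where called higher, filled blue where called lower and open where not called, with a bar at the list's median. The lipid droplet (-1.38) and triglyceride (-1.33) medians lie furthest to the left and the macrophage median (0.86) furthest to the right.

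The single mutants were set against the DKO-labelled libraries in direct contrasts of the same fit. These contrasts and the one with WT share the DKO-labelled libraries, so they are not independent and each is given by its own values. Against Gadd45a-KO 203 genes (1.26%) were called: 107 (0.662%) were higher in the DKO-labelled libraries and 96 (0.594%) lower. Against Ing1-KO 1887 (11.7%) were called: 956 (5.91%) were higher and 931 (5.76%) lower. Cidec and Adipoq had lower means in the DKO-labelled libraries than in either single mutant. Cidec averaged 6.43 CPM in the DKO-labelled libraries, 112 CPM in Gadd45a-KO, 107 CPM in Ing1-KO and 268 CPM in WT libraries, with adjusted p = 0.0515 against Gadd45a-KO and 0.0246 against Ing1-KO. Adipoq averaged 3.99 CPM in the DKO-labelled libraries, 53.1 CPM in Gadd45a-KO, 66.5 CPM in Ing1-KO and 128 CPM in WT libraries, with adjusted p = 0.0636 and 0.0255 in the same order. The Ing1-KO libraries were far apart for Adipoq, at 146, 44.0 and 9.14 CPM, and the Gadd45a-KO libraries had 53.1, 63.2 and 43.0 CPM. Of 15 lipid droplet genes 0 were lower than in Gadd45a-KO and 4 lower than in Ing1-KO, with medians of -0.68 and -0.67. Against Gadd45a-KO 9 of the 15 were lower at an unadjusted p under 0.05 in edgeR's test, DESeq2 called 6 of them lower and limma-voom 0. For the 25 triglyceride genes the counts of lower genes were 0 and 6 and the medians -0.99 and -0.90. Against Gadd45a-KO 12 of the 25 were lower at an unadjusted p under 0.05 in edgeR's test, while DESeq2 called 11 of them lower and limma-voom 0. Scd2 passed against Gadd45a-KO and not against Ing1-KO, with 745 CPM in the DKO-labelled libraries, 1026 CPM in Gadd45a-KO, 894 CPM in Ing1-KO and 1182 CPM in WT libraries (adjusted p = 0.0426 and 0.0812).

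All 38 tested macrophage genes had higher means in the DKO-labelled libraries than in either single mutant. Fcrls averaged 297 CPM in the DKO-labelled libraries, 112 CPM in Gadd45a-KO, 91.1 CPM in Ing1-KO and 72.3 CPM in WT libraries (adjusted p = 0.0969 against Gadd45a-KO and 0.0295 against Ing1-KO). Of 38 macrophage genes 0 were called higher than in Gadd45a-KO and 8 higher than in Ing1-KO, with medians of 0.74 and 0.77. Against Gadd45a-KO 25 of the 38 were higher at an unadjusted p under 0.05 in edgeR's test, DESeq2 called 18 of them higher and limma-voom 0. Of 40 lysosomal genes 6 and 12 were called higher. Slc40a1, at 71.7 CPM in the DKO-labelled libraries, 34.1 CPM in Gadd45a-KO, 44.3 CPM in Ing1-KO and 28.6 CPM in WT libraries, passed against both (adjusted p = 0.0104 and 0.0159). Ccl2 passed against both as well, at 68.8 CPM in the DKO-labelled libraries, 101 CPM in Gadd45a-KO, 84.9 CPM in Ing1-KO and 118 CPM in WT libraries (adjusted p = 0.0104 and 0.0276). Plxna4, Eln and Col10a1 lay nearer to their Ing1-KO than to their WT levels. Plxna4 averaged 30.7 CPM in the DKO-labelled libraries, 49.5 CPM in Gadd45a-KO, 33.3 CPM in Ing1-KO and 46.6 CPM in WT libraries (adjusted p = 0.000113 and 0.117). Eln averaged 981 CPM in the DKO-labelled libraries, 364 CPM in Gadd45a-KO, 919 CPM in Ing1-KO and 194 CPM in WT libraries (adjusted p = 0.101 and 0.896). Col10a1 averaged 12.1 CPM in the DKO-labelled libraries, 2.30 CPM in Gadd45a-KO, 9.52 CPM in Ing1-KO and 1.97 CPM in WT libraries (adjusted p = 0.0187 and 0.469). A p that misses the threshold does not show that these levels were alike. Of 50 replication and mitosis genes, of which 0 were called against WT, 22 were higher in the DKO-labelled than in Ing1-KO libraries, and 0 were higher than in Gadd45a-KO libraries, where 1 was at an unadjusted p under 0.05 and DESeq2 and limma-voom called 0. Mki67 averaged 249.5 CPM in the DKO-labelled libraries, 239 CPM in Gadd45a-KO, 174 CPM in Ing1-KO and 224 CPM in WT libraries (adjusted p = 0.0417 against Ing1-KO).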

How the data were processed

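The deposited files hold, per library, whole-number counts of reads per gene, not normalized. Per the submitters' processing notes the tools were HTSeq 0.5.4, TopHat2 2.0.9 with Bowtie2 2.1.0, FastQC and DESeq, and the builds mm9 and NCBIM37; how HTSeq treated strand and overlaps is not given in the sources used here. The 5 lines that name no gene (24.2% to 24.85% of each library) entered neither library sizes nor tests. Levels (CPM) of single genes are counts scaled to the library's total on tested genes, adjusted by the trimmed mean of M values. Summed list levels are scaled to the unadjusted total on all genes. The DKO-labelled libraries were compared with WT, Gadd45a-KO and Ing1-KO by edgeR 4.0.16 in R 4.3.3 (trimmed mean of M values, filterByExpr, quasi-likelihood test, 1 coefficient per genotype over all 12 libraries), with Benjamini-Hochberg adjustment over 16163 genes and a threshold of 0.05; SE is the size of the log2 fold change over the square root of F. The shared fit lets all genotypes inform the spread of each gene. Alternatives used other scalings, filters, DESeq2 1.42.0, limma 3.58.1 (voom), 6 libraries, a replicate block and 1 library fewer. On counts simulated for DKO against WT with 200 changed genes, 67.2%, 71.6% and 84.8% of the 1.5-fold, 2-fold and 4-fold changes were recovered, with 3 false calls among 15986 genes. These counts were drawn independently for each gene. They hold no library that stands apart in many genes at once, as some libraries did here, so these values do not cover that situation. No 2 replicates agreed within counting noise (chi-square per degree of freedom 6.92 to 30.4). Counting intervals cover counting error only, and reads placed at several sites were not counted, so genes with close relatives are uncertain.

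The 60 gene lists, the comparison and the rule for named genes were chosen with earlier results of these data known, so no list is independent evidence. The rule takes the targeted genes and their neighbours; called genes with the 20 largest rises or falls (at least 5 CPM in the higher group, no overlap), the 15 smallest adjusted p and the 15 largest CPM differences in each direction; and up to 6 called members of each list with the smallest adjusted p, plus any member whose role is described. The text names a selection of them, and some genes are not reported here. Promoter sequences were matched by symbol to RefSeq windows on GRCm38.p6, which 11486 of the 16163 tested genes had, and coordinates are of that build.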

Additional observations from a re-analysis of the deposited data

How the results depend on the processing

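Of 16163 genes, 960 were higher and 1146 lower in the DKO-labelled libraries than in WT. Other scalings (1016 and 1126, 885 and 1243), no filter on low counts (656 and 818), a minimum of 5 CPM (791 and 952), DESeq2 (1354 and 1403) and voom (849 and 1033) stayed within 1.5 times. With only the 6 DKO-labelled and WT libraries the counts were 1487 and 1685, so the higher count moved by over 1.5 times. With a 2-fold minimum they were 168 and 360, by construction. Leaving out 1 library at a time gave 121 to 1472 higher and 173 to 1472 lower. Losses beyond 1.5 times followed the omission of WT 1, WT 3, DKO 1 and DKO 2, and for the higher genes also WT 2, while the higher count grew without Gadd45a-KO 1. The cause was not tested; these fits hold fewer libraries. Between DKO-labelled and Gadd45a-KO libraries edgeR called 203 genes, DESeq2 1253 and voom 199, and between DKO-labelled and Ing1-KO libraries 1887, 2924 and 1534. No gene called against WT changed sign. Of 49 list counts of at least 3, 48 moved by over 1.5 times without WT 1 and 48 without DKO 1, 44 without WT 3 and 42 without DKO 2. Of 345 named called genes, 72 were called in every such fit, and 343 by DESeq2. Same-numbered libraries did not deviate together (r = -0.06, 0.02 and -0.03 for numbers 1, 2 and 3). These values cannot decide whether the numbers pair samples, since single libraries stood apart within their genotype. With the replicate block 783 were higher and 1027 lower.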
